A study of Mus musculus with 6 samples.

Results

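The Mef2 family comprises 4 genes, Mef2a, Mef2b, Mef2c and Mef2d, of 18193 genes named on the array. All probe sets annotated to them were taken, 16 of 45037. Mef2a had 6 probe sets, Mef2c 5, Mef2d 3 and Mef2b 1, and 1 further probe set was annotated to both Borcs8 and Mef2b. Expression was measured in mouse retina at postnatal day 21 on 6 short-oligonucleotide arrays. Of these, 3 carried RNA of wildtype C57Bl/6 mice and 3 carried RNA labelled as ERRβ -/- knockout, from animals of a C57Bl/6 x Sv129 background. ERRβ is the orphan nuclear receptor encoded by Esrrb, studied here for its part in rod photoreceptor survival. Retinas were pooled in pairs (2 per sample), and all samples were of mixed sex. Genotype and strain background changed together, so their parts in any difference cannot be told apart.

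The family was chosen on the same knockout against wildtype values that are described here, because the decrease of Mef2c was already known from these arrays. Its values are therefore a description. Where the fit's calls for its probe sets are counted, they only describe them and support nothing. In the deposited values, replicates 1 and 2 of each group had a trimmed mean near 500 and replicate 3 of each group one near 150, so signals are compared only within these 2 sets of arrays. All 16 probe sets passed the filter on low signal, which kept 27022 probe sets. Apart from the pooling, the labels leave unsaid whether each sample stood for different animals. Precision is limited by the 3 arrays per group.

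MEF2 proteins are MADS-box transcription factors that bind an A/T-rich DNA element as dimers. Class II histone deacetylases hold them in a repressive state, and calcium-dependent kinases, calcineurin, p38 and ERK5 release or activate them. MEF2 factors are best known from muscle and neurons. In the retina, MEF2D acts in photoreceptors together with the homeodomain factor CRX, and Mef2c is also transcribed in rods.

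RefSeq (GRCm38.p6) lists 3 transcription start windows for Mef2c on chromosome 13 and 1 for each of the other members. The 250 bases before each Mef2c start are shown because Mef2c carried the family's decrease and because ERR receptors recognise AAGGTCA. Capitals mark every match, on either strand, to AAGGTCA or to the shorter nuclear receptor core AGGTCA, which lies inside it. A match on the opposite strand reads TGACCTT or TGACCT.

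Mef2c window 1, chr13:83503784-83504033, plus strand: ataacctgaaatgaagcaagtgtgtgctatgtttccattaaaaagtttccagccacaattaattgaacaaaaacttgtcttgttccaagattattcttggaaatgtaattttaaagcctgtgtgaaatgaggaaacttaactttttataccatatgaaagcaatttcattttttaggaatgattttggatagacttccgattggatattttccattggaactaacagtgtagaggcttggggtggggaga
Mef2c window 2, chr13:83523406-83523655, plus strand: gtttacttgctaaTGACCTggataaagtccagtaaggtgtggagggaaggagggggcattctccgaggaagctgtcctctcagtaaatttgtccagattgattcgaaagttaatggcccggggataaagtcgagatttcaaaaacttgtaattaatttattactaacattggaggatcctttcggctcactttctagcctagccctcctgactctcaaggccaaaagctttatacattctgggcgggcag
Mef2c window 3, chr13:83573357-83573606, plus strand: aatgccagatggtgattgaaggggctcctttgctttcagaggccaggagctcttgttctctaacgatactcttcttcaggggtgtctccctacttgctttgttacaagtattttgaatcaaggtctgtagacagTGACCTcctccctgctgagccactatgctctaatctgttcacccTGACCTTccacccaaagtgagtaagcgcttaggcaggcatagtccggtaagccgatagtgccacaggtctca

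Window 3 held AAGGTCA on the opposite strand, at positions -72 to -66 from the start, and a second AGGTCA at -116 to -111. Window 2 held AGGTCA at -237 to -232, and window 1 held neither. Across all 32851 RefSeq windows of the same 250 bases, 4.08% held AAGGTCA and 14.0% held AGGTCA. The upstream windows of Mef2a (chr7:67372859-67373108, minus strand), Mef2b (chr8:70152511-70152760, plus strand) and Mef2d (chr3:88142122-88142371, plus strand) held neither. No window of the 4 genes held the MEF2 consensus, the CRX core TAATCC or the NRL core TGCTGAC, which stood in 2.92%, 6.25% and 3.81% of all windows. The annotation does not tie the probe sets to particular start sites, so the signals below cannot be divided between the 3 starts. These matches are descriptions of the letters only.

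Mef2c was lower in the arrays labelled knockout by every one of its probe sets, by 6.99- to 13.4-fold in replicates 1 and 2 and by 2.22- to 4.52-fold in replicate 3. The brightest, 1421027_a_at, read 1680.2 and 1572 in wildtype replicates 1 and 2 but 193 and 138 in those labelled knockout. In replicate 3 it read 507 in wildtype and 154 in labelled knockout. The groups did not overlap in either set, and the means of replicates 1 and 2 were 1626 ± 76.7 and 166 ± 38.7 (SD, n = 2). The log2 difference (knockout minus wildtype) was -3.31 in replicates 1 and 2 and -1.72 in replicate 3, and -2.78 ± 0.28 (SE, n = 3 per group) in a limma fit with the set of arrays as a block.

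Probe set 1421028_a_at read 859 and 759.7 in wildtype against 51.6 and 84.3 in labelled knockout replicates 1 and 2. It read 241 against 62.3 in replicate 3. The labelled knockout signals lay below the median of all probe sets on those arrays in replicates 1 and 2 (118 and 114), so near the dim end the size of this fall is approximate. Its fitted log2 difference, -3.06 ± 0.33, was the lowest of the family.

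Another 3 Mef2c probe sets share 1 source sequence and are not independent of each other. Probe set 1424852_at read 1021 and 930.1 in wildtype against 131 and 136 in labelled knockout replicates 1 and 2, then 490.3 and 109 in replicate 3. Its 2 labelled knockout signals in the first set differed by 0.055 on the log2 scale, against a difference between groups of -2.86. Its fitted value of -2.63 ± 0.17 had the smallest error of the 5.

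Probe set 1451506_at read 894 and 758 in wildtype against 72.1 and 52.5 in labelled knockout replicates 1 and 2. These labelled knockout signals lay below the array medians of 118 and 114, so the size of this fall is approximate. In replicate 3 the probe set read 255 and 115, the smallest Mef2c difference of that set (-1.15). With -3.74 in replicates 1 and 2, it also had the widest gap between sets. Probe set 1451507_at read 509 and 566 in wildtype, 85.1 and 69.4 in labelled knockout, and 192 and 42.4 in replicate 3. Its differences of -2.81 and -2.18 were closer together, and its labelled knockout signal was below the array median on all 3 arrays. Across the 10 pairs of Mef2c probe sets, profiles centred within each set of arrays correlated at r = 0.956 to 0.995 over the 6 arrays, which share RNA and labelling.

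**Figure D1:**
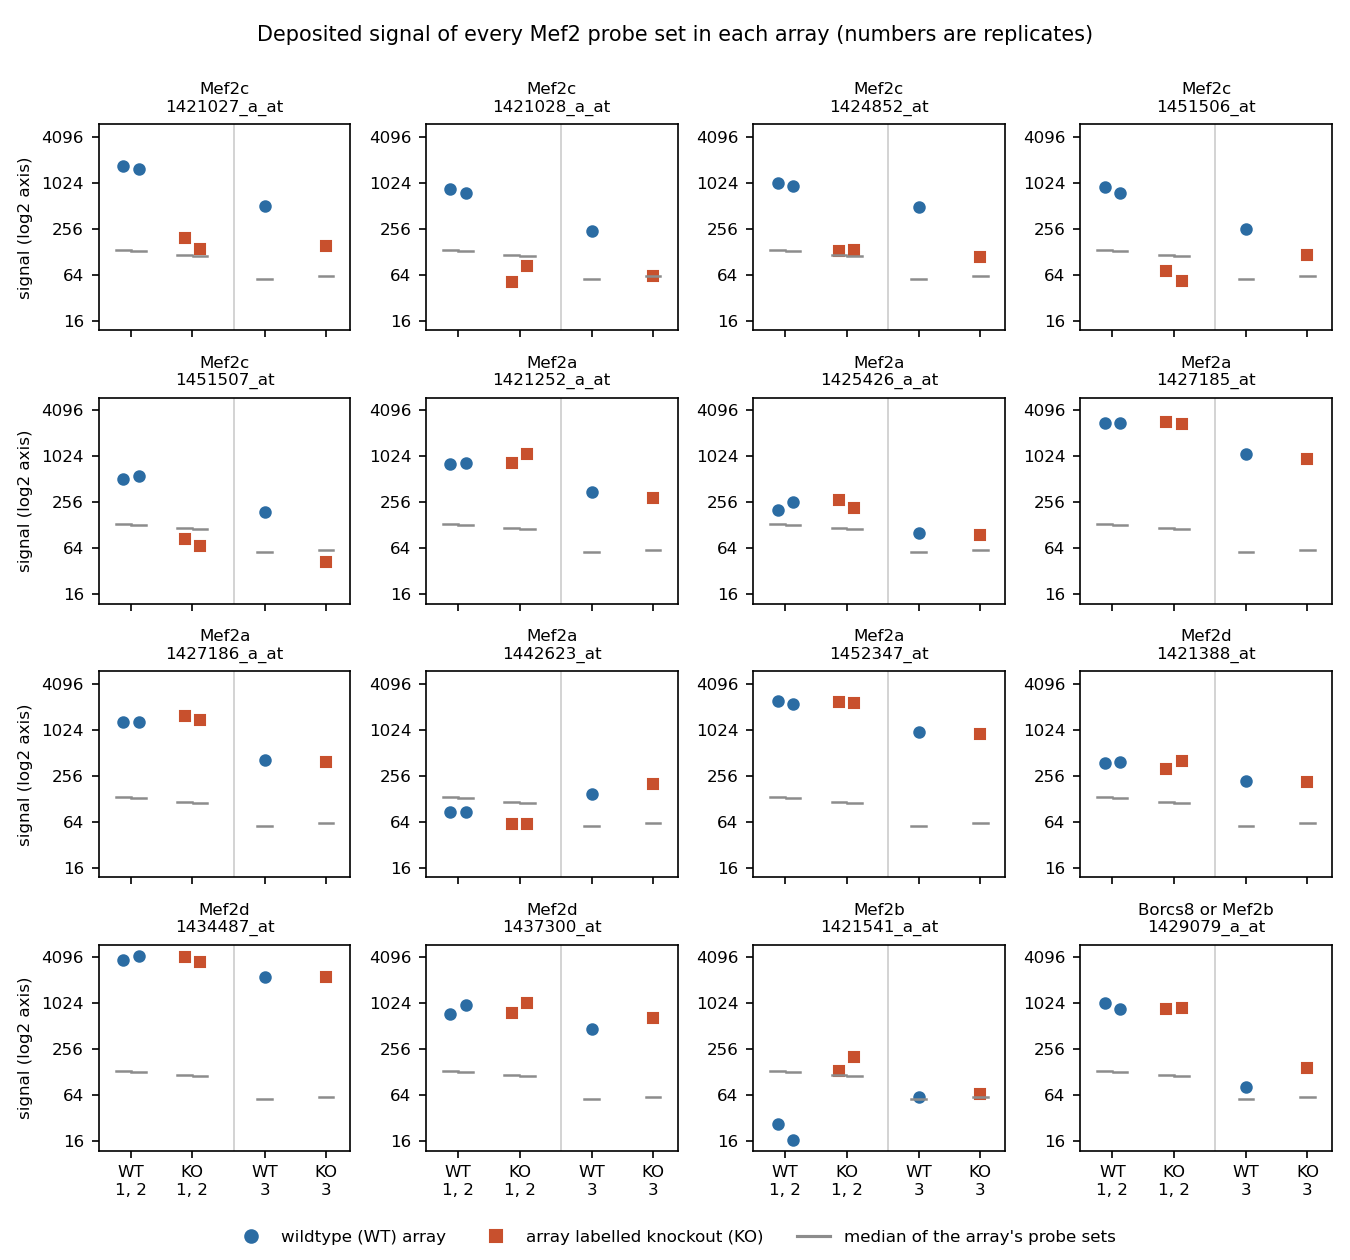
Deposited signal of the 16 probe sets annotated to the Mef2 family, on a log2 axis, for each wildtype (circle) and labelled knockout (square) array. Numbers under the axis are replicates, grey bars are the median of all probe sets on that array, and the vertical line parts the sets with trimmed means near 500 and near 150. In all 5 Mef2c panels every square lies below every circle of its set, while the Mef2a and Mef2d panels show no such gap in both sets.

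By the fit's call rule (limma, Benjamini-Hochberg adjusted p under 0.05), all 5 Mef2c probe sets and none of the other 11 were called lower, where 1.22% of all kept probe sets were called lower and 1.04% higher. All 5 were also lower in every labelled knockout array than in every wildtype array of the same set, as 17.2% of kept probe sets were. The Mef2c calls fell to 0 without a term for the set of arrays, and to 4 when any single array of replicates 1 and 2 was left out. With either array of replicate 3 left out, 1 other member was called, the Mef2b probe set 1421541_a_at, and it was higher (2.92 ± 0.48). Nothing is read from these calls, counts or shares, since this contrast chose the family.

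The difference was smaller in replicate 3 for each Mef2c probe set. Of the 27022 kept probe sets, 130 had a log2 difference of -2 or lower in replicates 1 and 2, with a median of -2.37. In replicate 3 the same 130 had a median of -0.04, with 73 of them below 0 and 16 at -1 or lower. All 5 Mef2c probe sets, which share RNA, were among the 130 and made up 5 of those 16. The family was chosen on these same values, so nothing is read from this count or from the ranks that follow. In the fit over all arrays, 5 to 11 of all kept probe sets, other Mef2c ones included, had a lower difference than a given Mef2c probe set. In replicate 3 alone, 17 to 137 had.

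**Figure D2:**
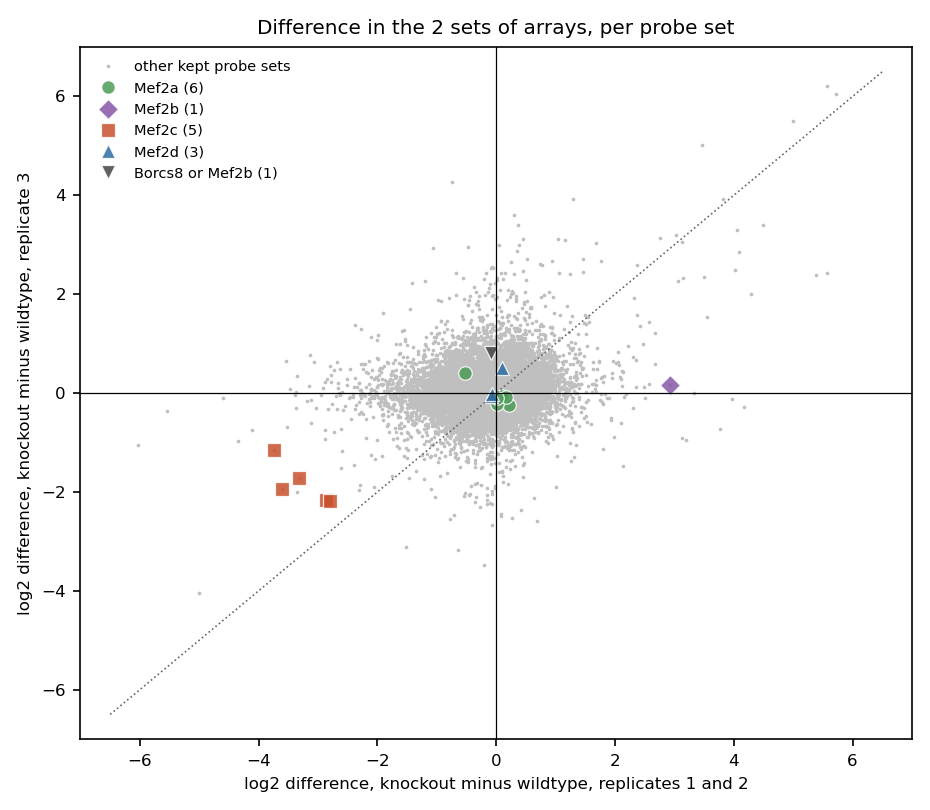
Log2 difference, knockout minus wildtype, of each kept probe set in replicates 1 and 2 (x axis, 2 arrays per group) against that in replicate 3 (y axis, 1 array per group). Grey points are other probe sets, coloured markers are Mef2 probe sets with their number in the key, and the dotted line marks equal values. The Mef2c markers lie at -2.81 to -3.74 and -1.15 to -2.18, with 2 of them nearly on top of each other, while the Mef2b marker lies at 2.92 and 0.17.

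Mef2a showed no shared direction. Its brightest probe set, 1427185_at, read 2765 and 2793 in wildtype against 2875 and 2737 in labelled knockout replicates 1 and 2, with both knockout signals within 0.071 of each other on the log2 scale and on either side of the wildtype pair. In replicate 3 it read 1100.2 and 938. Its fitted log2 difference was -0.07 ± 0.082.

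Probe set 1452347_at, from the same source sequence, read 2466 and 2219 against 2382 and 2316, and then 959 against 892. Probe set 1427186_a_at, the last of that source, read 1297 and 1307 against 1555 and 1379, so the groups did not overlap there, but it read 409.8 against 389 in the opposite order in replicate 3. Fitted differences were -0.03 ± 0.081 and 0.09 ± 0.098. The difference farthest from 0 among these 3, in either set, was the -0.23 of 1427185_at in replicate 3.

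The remaining Mef2a probe sets were dimmer. Probe set 1421252_a_at read 809 and 844 in wildtype against 839 and 1101 in labelled knockout, then 346 and 292 in replicate 3. Probe set 1425426_a_at read 202 and 256, 271 and 219, then 100.5 and 95.8. Both overlapped between groups in replicates 1 and 2.

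Probe set 1442623_at differed most among those of Mef2a and turned with the set of arrays. It read 85.2 and 85.5 in wildtype against 59.4 and 59.7 in labelled knockout replicates 1 and 2, a log2 difference of -0.52, all below the array medians of 114 to 135. In replicate 3 it read 149.6 and 198, a difference of 0.40. Over the 6 Mef2a probe sets, 5 were higher in replicates 1 and 2 and 5 were lower in replicate 3, and the median fitted difference was 0.01.

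Mef2d, the member known for its role with CRX in photoreceptors, overlapped between the groups by all 3 of its probe sets. Its brightest probe set, 1434487_at, read 3821 and 4255 in wildtype against 4187 and 3548 in labelled knockout replicates 1 and 2, and 2293 and 2255 in replicate 3. The groups overlapped, and the fitted log2 difference of -0.05 ± 0.087 was smaller than its error. Probe set 1421388_at read 374 and 389.6 against 314 and 406, then 222 against 212, for -0.09 ± 0.14. Probe set 1437300_at read 734 and 964 against 776 and 1037, then 467 against 667, and its 0.23 ± 0.15 came mostly from the difference of 0.51 in replicate 3.

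Mef2b, a member known for its role in germinal centre B cells, was read by 1 probe set of its own at low signal. Probe set 1421541_a_at read 27.3 and 16.9 in wildtype against 131 and 202 in labelled knockout replicates 1 and 2, then 60.03 and 67.5 in replicate 3. The groups did not overlap in either set (higher in every labelled knockout array, as in 16.4% of kept probe sets), with log2 differences of 2.92 and 0.17. In replicates 1 and 2, 24 kept probe sets had a higher difference, a rank from which nothing is read. The wildtype signals of replicates 1 and 2 lay far below the array medians of 130 to 135, while that of wildtype replicate 3 lay near its array median of 57.3. The fitted difference was 2.01 ± 0.56. With 16 added to every signal it was 1.54 ± 0.42. The probe set passed the filter on low signal through its labelled knockout arrays, and it fell under the filter when labelled knockout replicate 1 or 2, or both arrays of replicate 3, were left out.

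The probe set that cannot be assigned between Mef2b and its neighbour Borcs8 did not share this pattern. Probe set 1429079_a_at read 1037 and 855 in wildtype against 874 and 893 in labelled knockout, and 82.5 and 145 in replicate 3, with a fitted value of 0.21 ± 0.18.

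RNA of other cells in the dissected tissue was examined next, since Mef2c is also transcribed in microglia, vascular endothelium and muscle. In bulk tissue, fewer cells of a type and less RNA per cell cannot be told apart. Of 15 microglial markers 8 were measured and none was called (1 had an unadjusted p under 0.05 in limma, C1qb, which was lower, where 9.84% of all genes were lower and 11.5% higher at that threshold). Their summed signal was 3843 and 3818 in wildtype against 4845 and 4406 in labelled knockout replicates 1 and 2, and 768 and 743 in replicate 3. Of 12 endothelial markers 10 were measured and none was called, also at an unadjusted p under 0.05 in limma. Their sums were 4368 and 3669.9 against 4572 and 4550.1, and 1115 against 1169.9. A few bright genes carry such sums, among them Ctss and Kdr. In wildtype replicate 3, 5 of the 8 microglial and 5 of the 10 endothelial markers lay below the array median. In labelled knockout replicate 3 these were 6 and 4, so the values of replicate 3 are limited by low signal. Of the 8 microglial markers 1 had a negative fitted difference, C1qb at -0.37, though its kept probe sets ran up to 0.22. Tmem119 was the highest at 0.79 ± 0.39, and the median of the 8 was 0.17. In replicates 1 and 2 Tmem119 read 50.5 and 148 in wildtype against 175 and 169 in labelled knockout. Of the 10 endothelial markers 3 were negative, with a span from Flt1 at -0.46 to Pecam1 at 0.38 and a median of 0.15. Whether fewer of these cells had a part in the Mef2c values was not tested. Of 10 skeletal muscle markers, 7 did not pass the filter on low signal, and Ckm, Mylpf and Des, which did, summed to 313 and 342 against 296 and 314, and 124 against 121.

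Among the marker lists, only those of lens and pigment cells held genes called by their brightest kept probe set. Of 10 measured lens fibre genes 9 were called higher and none lower, where 1.28% of all genes were called higher and 1.48% lower. The summed signal of the 10 was 2159.8 and 1811 in wildtype, 43012 and 37761 in labelled knockout, and 4789.9 against 25465 in replicate 3. Of 10 measured pigment epithelium genes 4 were called higher, with sums of 33174 and 33774 against 38574 and 45728, and 1005 against 1752. Ttr carried much of the pigment sums in replicates 1 and 2 (18620 and 20249 against 17768 and 23846), where it overlapped between the groups. The ratio of 3′ to 5′ signal of Actb, a sign of RNA quality, was 1.83 to 2.32 in wildtype and 1.66 to 1.82 in labelled knockout arrays. That of Gapdh, at 0.712 to 0.779, did not part the groups. The part of these in the Mef2c and Mef2b values was not tested. All measured markers of rods (10), bipolar (4), amacrine (6), Müller (6) and ganglion cells (5) were above the median of every array. None of these was called by its brightest kept probe set. Of the 3 kept probe sets of the Müller cell marker Aqp4, which ran from 0.26 to 0.60, 1 was called. Of the 10 rod markers 9 had a negative fitted difference, with a median of -0.18. Their median was -0.28 in replicates 1 and 2 and 0.02 in replicate 3. Rod sums were 285886 and 283342 in wildtype against 225820 and 255668 in labelled knockout, and 38481 against 38974 in replicate 3. The part of this in the Mef2c values was not tested. At an unadjusted p under 0.05 in limma, 5 rod, 1 bipolar, 2 amacrine and 1 ganglion cell markers were lower, and 2 bipolar and 1 Müller cell markers were higher, beside the 9.84% lower and 11.5% higher of all genes. The targeted gene, Esrrb, read 2951 and 2934 in wildtype, 3435 and 4012 in labelled knockout and 1771 against 2397 in replicate 3 by its brightest probe set. The difference was 0.37 ± 0.083 (adjusted p = 0.0529 in limma with the filter and 0.0852 in limma without it). The signal thus did not fall with the label. The position of its probes relative to the deleted part was not analysed here.

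The next lists hold genes that act on or with MEF2 proteins, known MEF2 targets and photoreceptor transcription factors. Of these 60 genes 53 were measured, and 1 was called lower and none higher, where 1.48% of 12536 genes were called lower and 1.28% higher. At an unadjusted p under 0.05 in limma, 12 were lower and 6 higher, where 9.84% of all genes were lower and 11.5% higher. With replicates 1 and 2 only, 9 of the listed genes were called lower and 5 higher. The median log2 difference over the 53 was -0.04, against 0.02 over all genes.

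Among class II histone deacetylases and other corepressors, none of 7 measured genes was called (1 was lower at an unadjusted p under 0.05 in limma), with a median of -0.12. Hdac4 had the lowest value, -0.45 ± 0.19, which was -0.66 in replicates 1 and 2 and -0.02 in replicate 3. Its 3 kept probe sets ran from -0.45 to 0.22. Hdac7 had -0.27 ± 0.17 and Hdac9 -0.26 ± 0.12. The highest were the deacetylase genes Sirt1 (0.14 ± 0.10) and Hdac3 (0.05 ± 0.087).

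Of 10 coactivators and partner factors, Crebbp, which encodes the acetyltransferase CBP, was called lower. Its fitted log2 difference was -0.44 ± 0.086 (adjusted p = 0.0363 in limma), with -0.46 in replicates 1 and 2 and -0.38 in replicate 3, and it was lower in every labelled knockout array than in every wildtype array of its set. All 4 of its kept probe sets were lower, from -0.24 to -0.44, and 1 of them was called. With the replicate number as a block it was not called (adjusted p = 0.0972 in limma). Without any one of the 4 arrays of replicates 1 and 2 it also lost its call, as it did without a filter on low signal or with the median of its probe sets. Ppargc1a, a coactivator shared by MEF2 and ERR receptors, had -0.31 ± 0.099 and Ep300, the paralog of Crebbp, -0.27 ± 0.10. Nfatc4 (0.36 ± 0.24) and Ncoa2 (0.31 ± 0.12) were the highest.

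None of 17 kinase and phosphatase genes was called (4 lower and 2 higher at an unadjusted p under 0.05 in limma), and the median was -0.04. By the brightest kept probe set of each gene, the calcium-dependent kinase genes Camk4 and Camkk2 were the lowest, with -0.38 ± 0.14 and -0.37 ± 0.097. Map2k5, the kinase above ERK5, and Cdk5, a neuronal kinase that inhibits MEF2, were the highest at 0.38 ± 0.14 and 0.38 ± 0.094. The 4 kept probe sets of Map2k5 ran from -0.69 to 0.38, and the 4 of Mapk14 from -2.14 to -0.06, with none called. The 6 of Gsk3b ran from -0.71 to -0.34. With the median of its probe sets Gsk3b was called lower (-0.44, adjusted p = 0.0484 in limma). The calcineurin subunit genes Ppp3ca, Ppp3cb and Ppp3r1 had 0.03, 0.01 and -0.04.

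Among 8 measured genes known as MEF2 targets in neurons and other cells, none was called (1 lower at an unadjusted p under 0.05 in limma), with a median of -0.19. Nr4a1, an orphan receptor gene induced by calcium through MEF2, had the lowest value, -0.61 ± 0.19, with -0.78 in replicates 1 and 2 and -0.26 in replicate 3 (adjusted p = 0.119 in limma). Bdnf, a neurotrophin gene, had -0.48 ± 0.22, but 0.06 in replicate 3, and its other kept probe set had a fitted 0.22. Jun and Klf6 were the highest, at 0.18 ± 0.12 and 0.11 ± 0.14.

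None of 11 photoreceptor transcription factors was called (3 lower and 3 higher at an unadjusted p under 0.05 in limma). Rorb, needed for rod differentiation, had -0.60 ± 0.16, with -0.87 in replicates 1 and 2 and -0.05 in replicate 3, and the rod factor Nrl had -0.25 ± 0.068. Prdm1, which favours rods over bipolar cells, had 0.58 ± 0.13 and Neurod1 0.31 ± 0.070, with adjusted p = 0.0529 and 0.0528 in limma, just short of being called. Their calls depended on the setting. Neurod1 was called with quantile normalization (adjusted p = 0.0294 in limma) and Prdm1 with 16 added to every signal (adjusted p = 0.0499 in limma). Both were called with the 60th percentile filter (adjusted p = 0.0367 and 0.0387 in limma), with replicates 1 and 2 only and without either array of replicate 3. Prdm1 was also called with the median of a gene's probe sets. Neither was called without a filter on low signal, and the other kept probe set of Neurod1 had 0.09. With the replicate number as a block neither was called (adjusted p = 0.124 for Neurod1 and 0.117 for Prdm1 in limma), nor was either without any one of the 4 arrays of replicates 1 and 2. Crx, the partner of MEF2D, had -0.19 ± 0.069.

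**Figure D3:**
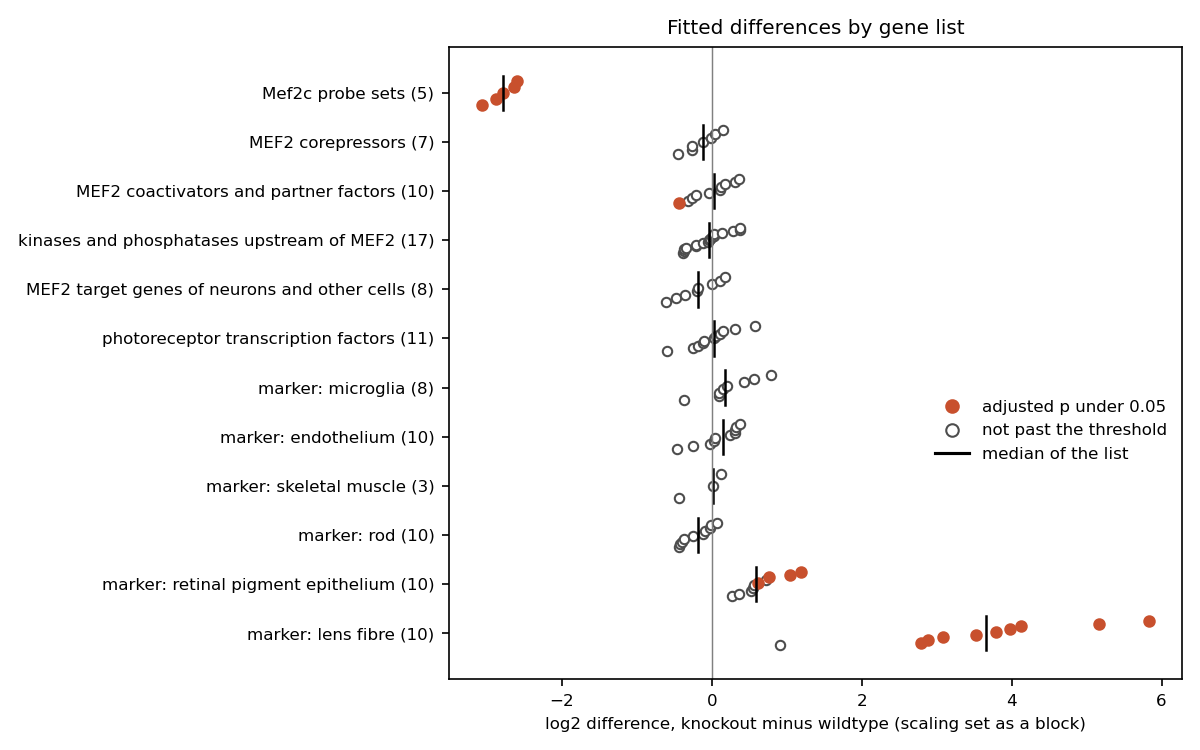
Fitted log2 difference, knockout minus wildtype, for the Mef2c probe sets and for each measured gene of the MEF2 pathway lists and of the marker lists of other cells, with the number measured in brackets. Filled points were called (adjusted p under 0.05), open points were not, and a black bar is the list's median. The Mef2c points lie from -2.60 to -3.06. The 53 pathway genes, each shown by its brightest kept probe set, span -0.61 to 0.58, and only Crebbp is filled. Kept probe sets of these genes that are not shown run as low as -2.14 (Mapk14). The family was chosen on these same values, so nothing is read from the gap.

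Genes next to the members on their chromosomes were compared in the order of RefSeq's gene table. Cetn3 and Mblac2 on one side of Mef2c had 0.06 ± 0.10 and 0.05 ± 0.16, and C130071C03Rik and 2810049E08Rik on the other had -0.06 ± 0.094 and -0.11 ± 0.24. None of the 4 was called in limma (adjusted p from 0.766 to 0.892), with differences far smaller than that of Mef2c. Of the 16 neighbours of all members, only Naxe, beside Mef2d, was called, and it was higher (0.46 ± 0.077, adjusted p = 0.0211 in limma). The nearest measured genes to Mef2b, Nr2c2ap and Tmem161a, had 0.15 ± 0.19 and 0.14 ± 0.10.

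Likeness to Mef2c was measured as Pearson's r with 1421027_a_at over the 6 arrays, each centred within its set, for 417 genes whose centred values had an SD of at least 0.5. Such profiles mostly carry the difference between groups, and the arrays are shared, so many genes come close: 35 had r of 0.95 or more and 39 had -0.95 or less. The 10 most alike were Tln2 (r = 0.9998), Hspa1a, Guca1a, Tmlhe, Ptar1, Slc26a2, Polg2, Gpsm2, Traf3ip3 and Hspa1b (r = 0.983). Guca1a encodes the calcium sensor of the photoreceptor guanylate cyclase, Hspa1a and Hspa1b near-identical heat shock proteins that can share a probe's signal, and Tln2 the cytoskeletal linker talin 2. Their fitted log2 differences ran from -0.97 for Ptar1 to -2.91 for Traf3ip3, and each was smaller in replicate 3 than in replicates 1 and 2. The 5 most opposite were Mlf1 (r = -0.996), Pter, the lens crystallin gene Cryga, Sh2d1a and Tmem26 (r = -0.991).

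**Figure D4:**
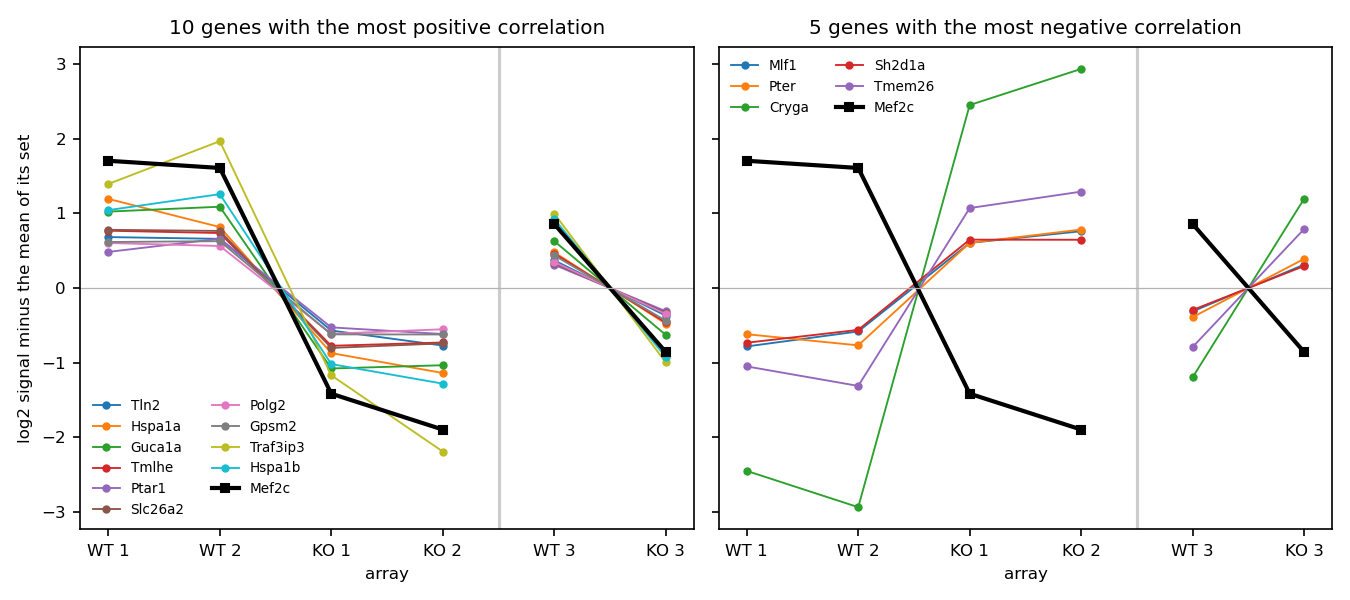
Log2 signal of Mef2c (1421027_a_at, black) and of the 10 genes most alike (left) and 5 most opposite (right), each minus its mean over the 4 arrays of replicates 1 and 2 or over the 2 arrays of replicate 3. The horizontal axis lists the arrays, with wildtype as WT and labelled knockout as KO, and lines only join the points of 1 gene within a set. All genes on the left are above their set's mean in wildtype and below it in labelled knockout arrays, and those on the right are the reverse.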

How the data were processed

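The authors deposited linear-scale signals, 1 intensity for each probe set of an array. The submitters' processing notes name GCOS 1.4 and MAS5, with no role given. RNA was amplified once with an oligo dT primer and labelled with biotin, per the labels' protocols. Of 45101 probe sets, 64 controls were left out. Gene names came from the platform annotation (34945 probe sets with 1 symbol, 932 with several, 9160 with none) and gene order and promoters from RefSeq GRCm38.p6.

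Signals were taken to log2 without further normalization. Probe sets were kept at or above the 40th percentile of mean log2 signal (a geometric mean of 54.5). Groups were compared with limma 3.58.1 in R 4.3.3 (variance trend, two-sided, Benjamini-Hochberg over 27022 probe sets, threshold 0.05), with the set of arrays as a block. The fit was tested on simulated data. A gene was represented by its brightest kept probe set. Genes named are all members, the called, 2 highest and 2 lowest of each pathway list, 2 neighbours per side, and the 10 most alike and 5 most opposite genes; others named were chosen after their values were seen. The members and lists were chosen with earlier results of these data known. The p-values reflect only the spread among these samples, which may be technical. Deviations of equally numbered samples correlated at 0.570, 0.670 and 0.843, each over the 0.1 of the rule used for pairing. Unequal numbers within replicates 1 and 2 gave 0.607 and 0.627, and those across the 2 sets of arrays gave -0.678 to -0.756. The values thus follow the sets of arrays and cannot show that the numbers pair the samples. Within replicates 1 and 2 the correlation was 0.0153, under the rule. The alternatives tried were the replicate block, no term for the set, quantile normalization, an added 16, other filters, fewer arrays and median probe sets.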

Additional observations from a re-analysis of the deposited data

How the results depend on the processing

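The log2 difference of the brightest Mef2c probe set, whose sign the choice of the family fixed, was -3.31 with the arrays of replicates 1 and 2 only, and between -3.31 and -2.49 when 1 array at a time was left out. The counts of called probe sets moved more. Against 329 lower and 280 higher, there were 0 and 0 without a term for the set of arrays (118 with an unadjusted p under 0.05 in limma), 107 and 93 with a replicate block, 2075 and 1635 with replicates 1 and 2 only, and 522 and 433 with the 60th percentile filter. Without a filter 185 were higher. With 1 array left out, 39 to 2202 were lower and 40 to 1512 higher, and the high ends came without an array of replicate 3. Of the pathway genes, against 1 lower and 0 higher, 0 were lower without the set term, with a replicate block and without a filter, and 9 were lower and 5 higher with replicates 1 and 2 only. Higher calls numbered 1 with quantile normalization, 1 with 16 added, 2 with the 60th percentile filter and 1 with the median of a gene's probe sets. With 1 array left out, 0 to 9 were lower and 0 to 5 higher. The cause of these shifts was not tested. Signals near or below an array's median limit the sizes given for Mef2b and for the labelled knockout level of Mef2c.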
